A study of Homo sapiens with 8 samples.

Results

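Gene expression 7 days after a pulse of hexavalent chromium was compared with expression in unexposed cells of the same human lymphoblastoid cell line, using 2 libraries labelled 7 days post treatment and 2 control libraries, 4 of the 8 libraries in the series. The members were taken by their treatment labels alone. The 7 day libraries came from cells given 5 µM chromium(VI) for 24 h and then left in culture, and the control libraries from cells in the same standard RPMI medium sampled before exposure began. The other 4 libraries, 2 taken at 24 h of exposure and 2 at 3 days, entered the fit to help estimate the spread and are quoted only beside genes of this comparison. Whether day 7 counts from the start or the end of the exposure is open, since the labels say after treatment and the series design says after onset. Time in culture and past chromium exposure differ together between the groups and cannot be told apart. All cells are of 1 line, and the labels do not say whether the replicates were separate cultures, so p-values measure the spread between these libraries only.

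Lymphoblastoid lines are B cells made to grow indefinitely by Epstein-Barr virus. The viral latent membrane protein LMP1 acts like a constantly engaged CD40 and keeps NF-kB signalling on, while the viral EBNA2 protein works through the Notch effector RBPJ to switch on host genes. Hexavalent chromium enters cells through anion transporters and is reduced inside them, which yields reactive intermediates and chromium-DNA adducts, and it is a known carcinogen. Expression days after exposure has ended concerns what persists once the agent has been reduced or removed.

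Assigned reads per library numbered 9940751 and 9920202 at 7 days, against 10884838 and 9478459 in control. Reads outside annotated features made up 36.5% and 45.3% of the 7 day libraries, against 44.4% and 47.5% of the control libraries. The 7 day replicates differed from each other more than the control replicates did: the median absolute log2 difference between replicates was 0.47 at 7 days, against 0.26 in control, and 17.5% of the 12536 genes tested differed over 2-fold between the 7 day replicates, against 4.49% between the control replicates. By a chi-square statistic of the gene counts, replicate 1 at 7 days stood 69.4 and 102 per degree of freedom from the 2 control libraries, and replicate 2 stood 17.4 and 22.5 from them. Replicate 1 at 7 days was nearest to replicate 1 at 3 days (4.33) and replicate 2 at 7 days to replicate 2 at 3 days (5.39). Both 7 day replicates lay on the same side of the control mean for 56.9% of genes. Values are therefore given for each replicate, in the order replicate 1, replicate 2. In bulk RNA, fewer cells of a type and less RNA per cell cannot be told apart.

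18 of 20 B cell markers reached 10 CPM, the read count scaled to a common library size after trimmed mean of M values scaling, in at least 1 of the 8 libraries, with summed levels of 8034 and 6184 CPM at 7 days, against 7263 and 7873 CPM in control. Of 18 T and NK cell markers only LCK, which B cells also express, reached that level, 7 (CD3D, CD3G, CD8A, CD8B, GNLY, GZMB and NCAM1) had no count in the 4 libraries, and the list summed to 59.8 and 53.3 CPM at 7 days, against 60.5 and 58.4 CPM in control. Of 14 myeloid markers, ITGAM and VCAN reached 10 CPM and 5, S100A8, S100A9, FCN1, CD163 and CSF3R, had no count. The myeloid list summed to 41.8 and 17.9 CPM at 7 days, against 65.0 and 60.1 CPM in control. VIM alone of 16 stromal and epithelial markers reached 10 CPM, DCN, LUM and CDH5 had no count, and the list summed to 1018 and 462 CPM at 7 days, against 516 and 365 CPM in control. The 9 erythroid markers summed to 0.662 and 0 CPM at 7 days, against 0.0878 and 0 CPM in control, with 7 at 0 in all 4 libraries, the globin genes HBA1, HBA2, HBB, HBG1 and HBG2 among them. The part of these other-cell markers in the results was not tested.

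No gene passed an adjusted p of 0.05 at 7 days against control by edgeR's quasi-likelihood test with Benjamini-Hochberg adjustment, in either direction (0% of 12536), and the smallest adjusted p was 0.481. An unadjusted p under 0.05 was reached by 619 genes (4.94%), of which 232 stood higher at 7 days (1.85%) and 387 lower (3.09%). With upper-quartile scaling that split was 157 higher and 464 lower. Both 7 day libraries stood above both control libraries for 2079 genes (16.6%) and below them for 2245 (17.9%). For 2 libraries against 2 with no difference between groups, a share of 0.333 of orderings separates fully, both directions together. These shares lie near that, so a lack of overlap is a description of a gene and no evidence by itself. Fold changes were above 0 for 6285 genes (50.1%) and below 0 for 6251 (49.9%), with a median log2 fold change of 0.0016. DESeq2 on the same 8 libraries called 0 genes higher (0%) and 15 lower (0.0822% of 18243), while limma-voom called 0 in either direction. edgeR with no filter on low counts called 1 higher, FOS, and 15 lower. Without 7 day replicate 1 DESeq2 called 0 higher and 6 lower, without 7 day replicate 2 it called 2 and 13, without control replicate 1 it called 1 and 3, and without control replicate 2 it called 0 and 0. The genes described first are those with the smallest unadjusted edgeR p in each direction, grouped by role, among genes whose 7 day and control libraries did not overlap, so that their separation is fixed by the choice. ITGA1 had the adjusted p of 0.481. The other genes given with a fold change had edgeR adjusted p-values of 0.851 or more in the main fit, with the filter and no replicate block.

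The gene with the smallest p was ITGA1, which encodes the alpha 1 subunit of a collagen- and laminin-binding integrin, and it was called lower at 7 days by DESeq2 (adjusted p = 4.45e-06). It stood at 23.3 and 22.2 CPM at 7 days, against 70.4 and 77.3 CPM in control. The replicates of each group nearly coincided, with a log2 fold change of -1.70 ± 0.21 (SE) and an edgeR adjusted p of 0.481. DESeq2 called ITGA1 lower also without 7 day replicate 1, without 7 day replicate 2 and without control replicate 1, and called no gene without control replicate 2. ITGB8, the beta 8 integrin subunit that helps activate latent TGF-beta, stood at 47.3 and 46.9 CPM at 7 days, against 96.7 and 86.6 CPM in control (log2 fold change -0.96 ± 0.25, SE). Its libraries did not overlap between groups. MMP7, a matrix metalloproteinase, stood at 11.2 and 6.33 CPM at 7 days, against 27.9 and 41.5 CPM in control and was called lower by DESeq2 (log2 fold change -1.99 ± 0.46, SE; DESeq2 adjusted p = 0.0350). MMP7, LTA, TC2N, LOC256021 and C1orf173 are named because DESeq2 called them.

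CCL22, the chemokine that draws CCR4-bearing T cells, stood at 257 and 203 CPM at 7 days, against 725 and 534 CPM in control and was called lower by DESeq2 (log2 fold change -1.45 ± 0.26, SE; DESeq2 adjusted p = 0.00628). LTA, lymphotoxin alpha, stood at 97.0 and 145 CPM at 7 days, against 291 and 532 CPM in control and was also called lower (log2 fold change -1.76 ± 0.40, SE; DESeq2 adjusted p = 0.0350). The control replicates of LTA were further apart than its 7 day replicates, and its groups did not overlap. NFKB2, which encodes the p100 precursor of the NF-kB subunit p52, stood at 74.9 and 76.0 CPM at 7 days, against 147 and 151 CPM in control (log2 fold change -0.98 ± 0.20, SE). TRAF1, an adaptor bound by TNF receptor family members, stood at 88.0 and 101 CPM at 7 days, against 195 and 167 CPM in control (log2 fold change -0.94 ± 0.20, SE). Both genes had replicates close together and control libraries near 2 times the 7 day libraries; DESeq2 over all genes called neither, and over the genes that edgeR tested it called NFKB2 (adjusted p = 0.0325). Among TNF receptor family members, TNFRSF9 (4-1BB) stood at 4.75 and 4.52 CPM at 7 days, against 14.9 and 10.03 CPM in control (log2 fold change -1.43 ± 0.32, SE). CD40, the receptor that T cell help engages on B cells, stood at 20.9 and 29.4 CPM at 7 days, against 42.4 and 55.1 CPM in control (log2 fold change -0.95 ± 0.32, SE). Neither receptor overlapped between groups. BIRC3, an inhibitor of apoptosis that NF-kB induces, stood at 327 and 370.2 CPM at 7 days, against 526 and 823 CPM in control (log2 fold change -0.95 ± 0.32, SE).

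MS4A7, a four-pass membrane protein of the CD20 family, stood at 4.42 and 5.73 CPM at 7 days, against 18.6 and 19.0 CPM in control, with DESeq2 calling it lower (log2 fold change -1.89 ± 0.40, SE; DESeq2 adjusted p = 0.0350). NTRK2, the receptor for brain-derived neurotrophic factor, stood at 8.06 and 4.42 CPM at 7 days, against 17.9 and 19.8 CPM in control (log2 fold change -1.59 ± 0.34, SE). Replicate 1 lay above replicate 2 for NTRK2 at 7 days, and both lay below the control libraries. CYP1B1, a cytochrome P450 that oxidises polycyclic hydrocarbons and oestrogens, stood at 6.18 and 3.52 CPM at 7 days, against 20.4 and 15.0 CPM in control and was called lower by DESeq2 (log2 fold change -1.87 ± 0.38, SE; DESeq2 adjusted p = 0.0350). ABCA9, an ABC transporter, stood at 3.31 and 5.03 CPM at 7 days, against 19.3 and 12.8 CPM in control (log2 fold change -1.94 ± 0.41, SE; DESeq2 adjusted p = 0.0409). KIF26B, of the kinesin family, stood at 3.64 and 1.41 CPM at 7 days, against 13.7 and 10.1 CPM in control (log2 fold change -2.24 ± 0.47, SE; DESeq2 adjusted p = 0.0350). The 7 day replicates of KIF26B were the furthest apart of these 5 genes on the log scale. RASSF4, a Ras association domain protein, stood at 17.2 and 15.6 CPM at 7 days, against 41.6 and 36.2 CPM in control (log2 fold change -1.25 ± 0.22, SE; DESeq2 adjusted p = 0.0350). ALPK2, an alpha-type protein kinase, stood at 6.30 and 5.33 CPM at 7 days, against 19.2 and 14.8 CPM in control (log2 fold change -1.55 ± 0.27, SE; DESeq2 adjusted p = 0.0350). Both were called lower by DESeq2. ZMIZ2, a PIAS-like transcriptional coregulator, stood at 18.1 and 21.5 CPM at 7 days, against 37.2 and 45.5 CPM in control (log2 fold change -1.06 ± 0.23, SE).

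The long noncoding RNA LINC00158 stood at 10.5 and 13.5 CPM at 7 days, against 28.5 and 34.3 CPM in control and was called lower by DESeq2 (log2 fold change -1.39 ± 0.27, SE; DESeq2 adjusted p = 0.0409). TC2N stood at 2.65 and 3.12 CPM at 7 days, against 9.05 and 19.8 CPM in control (log2 fold change -2.31 ± 0.54, SE; DESeq2 adjusted p = 0.0451). LOC256021 stood at 3.53 and 3.42 CPM at 7 days, against 12.04 and 21.5 CPM in control (DESeq2 adjusted p = 0.00984), and C1orf173 at 1.88 and 3.52 CPM at 7 days, against 8.43 and 22.2 CPM in control (DESeq2 adjusted p = 0.0492). For these 3 genes the control replicates were further apart than the 7 day replicates, and the groups still did not overlap. EMR4P, a pseudogene of an adhesion G protein-coupled receptor, stood at 0.331 and 1.41 CPM at 7 days, against 5.27 and 6.55 CPM in control. Its level is uncertain, because reads can be shared with its functional relatives.

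CREB3L1 had the lowest 7 day level among the 15 lower genes with the smallest p. It encodes a transcription factor held in the endoplasmic reticulum membrane until cleavage frees it. It had 3 counts over the 7 day libraries, against 73 over the control libraries, which is 0.221 and 0.101 CPM at 7 days, against 3.16 and 3.79 CPM in control (log2 fold change -4.35 ± 0.64, SE; DESeq2 adjusted p = 0.0350). The control level was 21.9 times the 7 day level, with an exact 95% interval of 7.19 to 108 that covers counting error only. A search for genes with at most 2 counts in each library of 1 group and at least 10 in each of the other found 3 that were near absent at 7 days and 1 that was near absent in control. TENM2, a teneurin cell adhesion receptor, had 2 counts at 7 days, against 33 in control, a control to 7 day ratio of 14.8 (3.79 to 127). BTBD8 had 1 count at 7 days, against 23 in control, a ratio of 20.7 (3.36 to 851). In the other direction the pseudogene ZNF487P had 20 counts at 7 days, against 1 in control, a 7 day to control ratio of 22.3 (3.56 to 923). All 4 rest on few reads. Their separation is fixed by the rule of the search, so the ratios and intervals only describe the counts and are no test.

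The 15 genes with the smallest p among those standing higher at 7 days were not called by DESeq2 on all libraries. Nor were they called by edgeR with its filter in the main fit, which had no replicate block. With the replicate number as a block over the 4 libraries, edgeR called FOS (adjusted p = 0.00165) and PIGR (adjusted p = 0.0297) higher. NFIL3, a bZIP transcriptional repressor that also acts on clock genes, stood at 19.8 and 18.5 CPM at 7 days, against 8.17 and 8.70 CPM in control (log2 fold change 1.18 ± 0.26, SE). PIGR, the receptor that carries polymeric immunoglobulin across epithelia, stood at 24.1 and 15.5 CPM at 7 days, against 7.20 and 7.17 CPM in control (log2 fold change 1.46 ± 0.33, SE). LAMP5, of the lysosome-associated membrane protein family, stood at 3.87 and 6.73 CPM at 7 days, against 1.14 and 1.54 CPM in control (log2 fold change 1.98 ± 0.44, SE). The control replicates of all 3 genes lay close together. FOS, an AP-1 subunit and immediate early gene, stood at 12.9 and 25.2 CPM at 7 days, against 5.80 and 1.84 CPM in control (log2 fold change 2.31 ± 0.63, SE). Its replicates differed in both groups, and it was called higher by DESeq2 without control replicate 1 (adjusted p = 0.0425) and by edgeR with no filter on low counts (adjusted p = 0.0303).

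IDH2, the mitochondrial NADP-dependent isocitrate dehydrogenase, stood at 101 and 109 CPM at 7 days, against 56.0 and 62.4 CPM in control (log2 fold change 0.83 ± 0.21, SE). HADH, a hydroxyacyl-CoA dehydrogenase of mitochondrial fatty acid oxidation, stood at 166 and 127 CPM at 7 days, against 78.4 and 85.3 CPM in control (log2 fold change 0.84 ± 0.23, SE). DCK, the kinase that salvages deoxycytidine, stood at 188 and 175 CPM at 7 days, against 103 and 86.5 CPM in control (log2 fold change 0.93 ± 0.24, SE). All 3 differed by less than 2-fold between the group means. MGST3, a microsomal glutathione S-transferase, stood at 22.6 and 21.4 CPM at 7 days, against 12.04 and 9.83 CPM in control (log2 fold change 1.01 ± 0.24, SE). HMGB2, an abundant chromatin protein of dividing cells, stood at 619.6 and 525 CPM at 7 days, against 323 and 319 CPM in control (log2 fold change 0.83 ± 0.22, SE). NEK2, a centrosomal kinase of mitosis, stood at 77.6 and 68.7 CPM at 7 days, against 41.6 and 45.7 CPM in control (log2 fold change 0.75 ± 0.22, SE). CDCA7L, a MYC-interacting nuclear protein, stood at 55.8 and 57.5 CPM at 7 days, against 29.3 and 30.1 CPM in control (log2 fold change 0.93 ± 0.22, SE). CTDSP2, a small phosphatase of the RNA polymerase II tail family, had a log2 fold change of 1.03 ± 0.26 (SE), CARHSP1, an RNA-binding phosphoprotein, 1.18 ± 0.31, SUMF2, a sulfatase-modifying factor paralogue, 0.69 ± 0.20, and the small Cajal body RNA SCARNA9, whose reads may come from a host transcript, 1.17 ± 0.34.

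**Figure D1:**
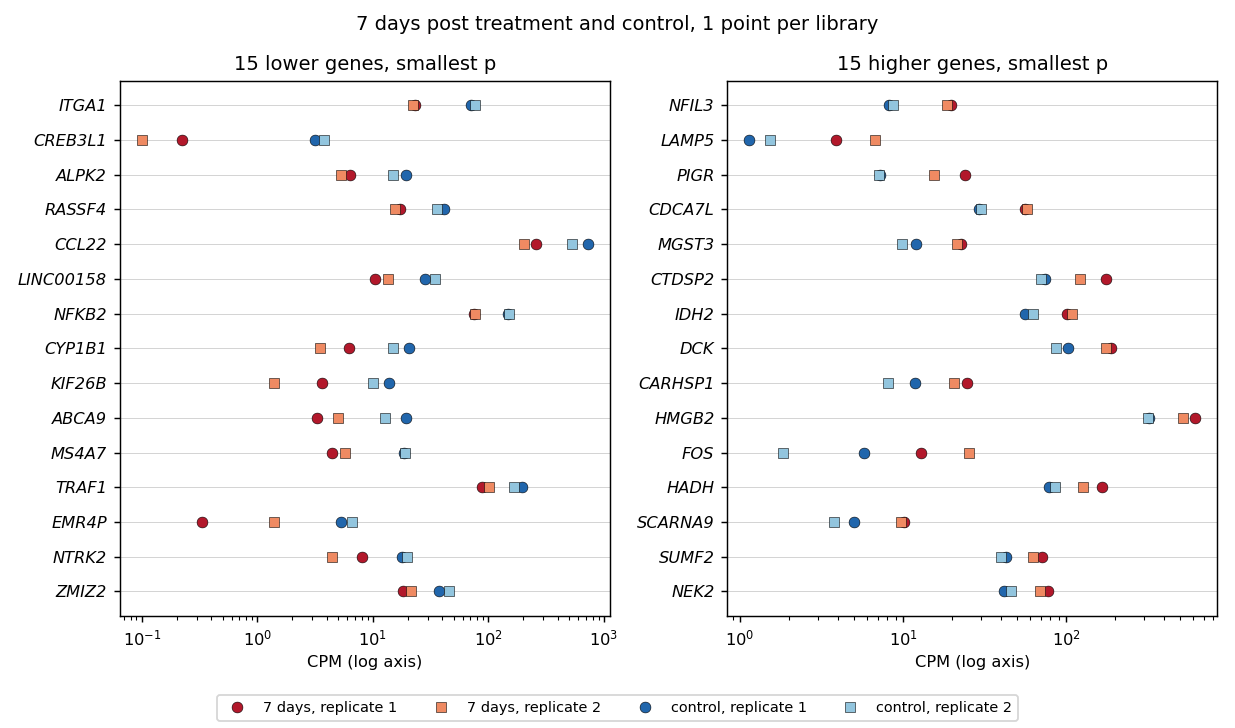
CPM on a log axis in each 7 day and each control library for the 15 lower and 15 higher genes with the smallest edgeR p among genes of at least 2 CPM whose libraries do not overlap. Each point is a library; the 7 day points of ITGA1 lie at 23.3 and 22.2 CPM and its control points at 70.4 and 77.3 CPM, while FOS has widely spaced points in both groups.

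Promoters are shown for the 3 lower and 2 higher genes with the smallest p, so that the sequence at the start of the most separated genes can be read beside their values. They run from 250 bases before to 50 after the start, are from RefSeq on GRCh38.p14, and are printed 5′ to 3′ on the gene's strand; capitals mark matches, on either strand, to any of 10 searched motifs.
ITGA1 (chr5:52787666-52787965, plus strand): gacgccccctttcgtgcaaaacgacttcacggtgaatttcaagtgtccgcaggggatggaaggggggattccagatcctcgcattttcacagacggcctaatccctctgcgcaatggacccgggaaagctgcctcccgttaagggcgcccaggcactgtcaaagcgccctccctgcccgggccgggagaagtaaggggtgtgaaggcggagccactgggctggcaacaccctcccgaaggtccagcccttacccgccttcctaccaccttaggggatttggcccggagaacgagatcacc
CREB3L1 (chr11:46294909-46295208, plus strand): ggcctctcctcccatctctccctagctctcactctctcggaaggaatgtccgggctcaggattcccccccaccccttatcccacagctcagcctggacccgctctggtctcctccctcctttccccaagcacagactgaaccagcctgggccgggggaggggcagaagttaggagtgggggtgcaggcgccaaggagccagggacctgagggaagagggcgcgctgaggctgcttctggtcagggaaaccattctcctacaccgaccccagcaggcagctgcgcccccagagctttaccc
ALPK2 (chr18:58629042-58629341, minus strand): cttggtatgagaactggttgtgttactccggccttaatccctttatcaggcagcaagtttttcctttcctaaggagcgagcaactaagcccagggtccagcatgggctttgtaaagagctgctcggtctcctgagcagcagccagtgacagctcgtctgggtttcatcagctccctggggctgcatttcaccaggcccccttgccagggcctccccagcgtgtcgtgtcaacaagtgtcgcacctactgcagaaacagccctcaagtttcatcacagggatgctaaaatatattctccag
NFIL3 (chr9:91424577-91424876, minus strand): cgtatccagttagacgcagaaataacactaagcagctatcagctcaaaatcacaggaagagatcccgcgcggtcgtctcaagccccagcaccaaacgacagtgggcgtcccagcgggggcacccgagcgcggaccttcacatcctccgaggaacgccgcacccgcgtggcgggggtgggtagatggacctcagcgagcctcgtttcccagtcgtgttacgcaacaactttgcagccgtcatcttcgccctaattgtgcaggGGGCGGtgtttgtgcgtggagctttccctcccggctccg
LAMP5 (chr20:9514340-9514639, plus strand): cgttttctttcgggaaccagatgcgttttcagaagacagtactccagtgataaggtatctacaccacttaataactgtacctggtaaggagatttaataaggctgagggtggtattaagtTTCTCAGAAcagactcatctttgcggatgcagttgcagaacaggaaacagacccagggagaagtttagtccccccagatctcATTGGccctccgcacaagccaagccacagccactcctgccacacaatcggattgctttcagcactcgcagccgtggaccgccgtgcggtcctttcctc
Blocks of letters with free bases between them described kappa B (GGG, any 2 bases, then TTTCC) and IRF (GAAA, any 2 bases, then GAAA). The other motifs were the AP-1 site TGANTCA, the E-box CACGTG and the hypoxia core ACGTG that lies inside it, the E2F site TTTNNCGC, the ETS site CCGGAAG, the NF-Y box CCAAT, the GC box GGGCGG and the STAT site TTCNNNGAA. The windows of ITGA1, CREB3L1 and ALPK2 held none of them, that of NFIL3 held 1 GC box, and that of LAMP5 held 1 CCAAT and 1 STAT match. A GC box was in 44.6% of all 27305 promoters, with CCAAT in 35.7%, STAT in 7.88% and the kappa B letters in 1.92%. Of the 9789 promoters of genes tested 68.8% held a GC box and 2.24% the kappa B letters, each motif counted on both strands. A promoter was found for 12 of the 15 lower and 13 of the 15 higher genes. Of the 12 lower genes 4 held a GC box and 0 the kappa B letters, and of the 13 higher genes 10 held a GC box and 0 the kappa B letters. A match is a description of letters only.

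Ranking genes by the gap between the closest 7 day and control libraries, among genes of at least 5 CPM, brought up further genes (8 in each direction, some of them given above). Higher at 7 days were PXDN, a peroxidase of the extracellular matrix, at 5.52 and 5.43 CPM at 7 days, against 1.76 and 1.43 CPM in control, and TGFBR3, the TGF-beta co-receptor betaglycan, at 6.52 and 10.3 CPM at 7 days, against 2.46 and 2.56 CPM in control. ADM, which encodes the hypoxia-inducible peptide adrenomedullin, stood at 3.75 and 7.84 CPM at 7 days, against 1.93 and 1.64 CPM in control. The 7 day replicates of PXDN were near identical, whereas those of ADM were about 2-fold apart. On the lower side were NPR1, the atrial natriuretic peptide receptor, at 0.221 and 1.81 CPM at 7 days, against 6.06 and 8.80 CPM in control, and FRMD3, at 0.884 and 1.01 CPM at 7 days, against 2.90 and 7.58 CPM in control. SNORD100, a small nucleolar RNA whose reads may belong to its host gene, stood at 2.65 and 2.71 CPM at 7 days, against 11.2 and 8.09 CPM in control. LAMP5, FOS, PIGR, NFIL3, SCARNA9, EMR4P, MS4A7, ITGA1, TC2N and KIF26B, given above, made up the rest of the 8 in each direction.

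The largest gains in CPM were in abundant genes of translation, glycolysis and the cytoskeleton, and in most of them the 7 day replicates differed in size. EEF1A1, the translation elongation factor that delivers tRNA to the ribosome, stood at 45107 and 20109 CPM at 7 days, against 17619 and 13619.7 CPM in control (log2 fold change 1.06 ± 0.50, SE). GAPDH, a glycolytic enzyme, stood at 7458 and 3837 CPM at 7 days, against 2685 and 2578 CPM in control (log2 fold change 1.10 ± 0.39, SE). In both, 7 day replicate 1 was about 2 times replicate 2, and replicate 2 lay above both control libraries. LDHA, the lactate dehydrogenase subunit, stood at 3403 and 2625 CPM at 7 days, against 1893 and 1825 CPM in control (log2 fold change 0.70 ± 0.26, SE). PABPC1, the poly(A) binding protein, NPM1, a nucleolar chaperone, RPL4, a ribosomal protein, LAPTM5, a lysosomal membrane protein of blood cells, and ACTG1, gamma actin, completed the 8 largest gains, with log2 fold changes of 0.73, 0.73, 0.85, 0.58 and 0.41.

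Among the largest losses in CPM, NEAT1, the noncoding RNA that scaffolds paraspeckles, stood at 269 and 947 CPM at 7 days, against 1101 and 1620.2 CPM in control (log2 fold change -1.16 ± 0.66, SE). Replicate 1 held the lower 7 day level. CCND2, cyclin D2, stood at 956 and 1099 CPM at 7 days, against 1816 and 1436 CPM in control (log2 fold change -0.66 ± 0.25, SE). MS4A1, which encodes CD20, stood at 949.7 and 944 CPM at 7 days, against 1142 and 1518 CPM in control (log2 fold change -0.49 ± 0.26, SE). CCND2 and MS4A1 had 7 day replicates close to each other. OAS3, an interferon-induced oligoadenylate synthetase, stood at 422 and 668 CPM at 7 days, against 789.9 and 912 CPM in control (log2 fold change -0.64 ± 0.32, SE), and ACTB, beta actin, at 2762 and 4036 CPM at 7 days, against 4662 and 4471 CPM in control (log2 fold change -0.43 ± 0.31, SE). BIRC3 and CCL22, given above, were also among them.

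**Figure D2:**
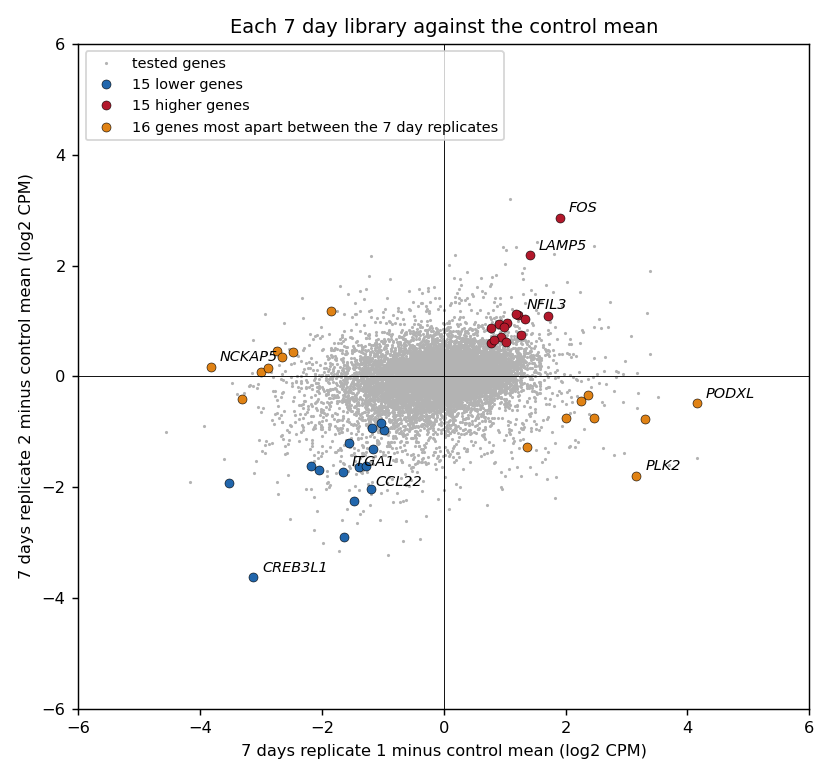
Log2 CPM of 7 day replicate 1 minus the control mean (horizontal) against that of replicate 2 (vertical), 1 grey point per gene tested. Blue and red points are the 15 lower and 15 higher genes, orange points the 16 genes most apart between the 7 day replicates, and some are labelled. The cloud is wider along the replicate 1 axis, and both replicates lie on the same side of the control mean for 56.9% of genes.

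Gene lists were described by counts and medians, read beside the values over all genes tested. Axon guidance genes (neurotrophins, ephrins, semaphorins, plexins and their receptors) stood lower as a group: of 26 tested, 8 had a fold change above 0 and 18 below, 1 had both 7 day libraries above control and 11 below (16.6% and 17.9% of all genes tested), and the median log2 fold change was -0.48. Against the control mean the list median was -0.80 in replicate 1 and -0.54 in replicate 2, so the replicates gave one direction. PLXNA2, a semaphorin receptor, stood at 1.55 and 1.21 CPM at 7 days, against 3.95 and 5.22 CPM in control (log2 fold change -1.73 ± 0.47, SE). SEMA7A, a membrane-anchored semaphorin, stood at 124 and 124 CPM at 7 days, against 190.0 and 246 CPM in control (log2 fold change -0.81 ± 0.25, SE), and SEMA6A at 15.5 and 23.7 CPM at 7 days, against 35.8 and 60.9 CPM in control (log2 fold change -1.30 ± 0.41, SE). All 3, like NTRK2, had groups that did not overlap.

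ABC transporters had 6 of 33 members above 0 and 27 below, 13 of them with libraries below control without overlap (17.9% of all genes tested), and a median of -0.25 (-0.40 and -0.24 in the replicates). Beside ABCA9, its member ABCA6 stood at 30.4 and 52.7 CPM at 7 days, against 103 and 82.0 CPM in control (log2 fold change -1.16 ± 0.36, SE). TAP2, a subunit of the peptide transporter that loads HLA class I, stood at 116 and 114 CPM at 7 days, against 169 and 173.1 CPM in control (log2 fold change -0.57 ± 0.18, SE).

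Centromere and kinetochore genes leaned the other way. Of 41 tested, 34 had a fold change above 0 and 7 below, 24 had both 7 day libraries above both control libraries against 2 below (16.6% and 17.9% of all genes tested), and the median was 0.27, with 0.20 in replicate 1 and 0.33 in replicate 2. CENPH stood at 59.4 and 47.7 CPM at 7 days, against 36.7 and 32.7 CPM in control (log2 fold change 0.63 ± 0.21, SE). HJURP, the chaperone that loads the centromeric histone CENP-A, stood at 63.5 and 53.5 CPM at 7 days, against 38.7 and 29.4 CPM in control (log2 fold change 0.78 ± 0.27, SE). SKA1, which couples kinetochores to microtubules, stood at 142 and 112 CPM at 7 days, against 84.9 and 65.4 CPM in control (log2 fold change 0.76 ± 0.29, SE), and NDC80, the main microtubule-binding kinetochore subunit, at 132 and 102 CPM at 7 days, against 73.0 and 69.9 CPM in control (log2 fold change 0.71 ± 0.28, SE). None of the 4 overlapped between groups. The libraries taken at 24 h of exposure had list medians of -0.22 and 0.14 against the control mean. Kinesins had 20 of 32 above 0 and a median of 0.12 (-0.0097 and 0.27); KIF22 and KIF20A, both mitotic, had log2 fold changes of 0.66 ± 0.25 and 0.64 ± 0.24 (SE), against -2.24 for KIF26B.

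**Figure D3:**
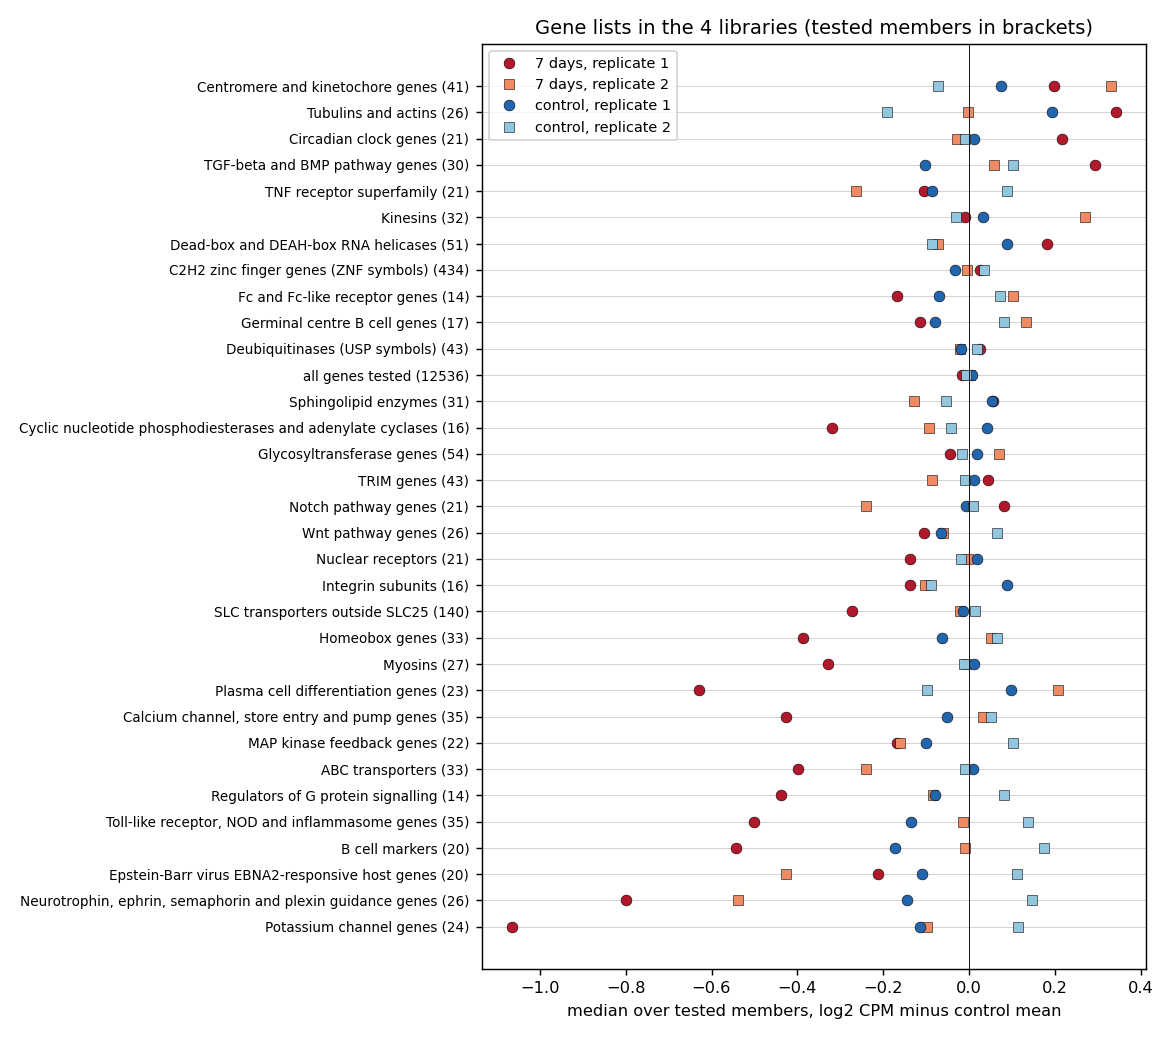
Median log2 difference from the control mean for each gene list, with 1 point for each 7 day and control library and the number of tested members in brackets; lists with under 10 tested members and lists not reported here are left out. Axon guidance genes lie at -0.80 and -0.54, centromere and kinetochore genes at 0.20 and 0.33, and several channel and plasma cell lists have replicate 1 far below replicate 2.

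Genes of TGF-beta and BMP signalling, in which receptor kinases act on SMAD proteins, had 22 of 30 members above 0, 7 of them without overlap (16.6% of all genes tested), and a median of 0.16 (0.29 and 0.058). The control libraries had list medians of -0.10 and 0.10 against their own mean, so 7 day replicate 2 lay within the control range. The 24 h libraries had 0.23 and 0.045. SMAD1, which carries BMP signals, stood at 21.9 and 29.4 CPM at 7 days, against 12.2 and 14.1 CPM in control (log2 fold change 0.96 ± 0.29, SE). ID3, a target of that pathway and an inhibitor of E proteins in B cells, stood at 26.2 and 18.1 CPM at 7 days, against 7.73 and 11.4 CPM in control (log2 fold change 1.21 ± 0.44, SE). ACVR2B, an activin receptor, stood at 19.99 and 21.6 CPM at 7 days, against 10.2 and 12.1 CPM in control (log2 fold change 0.90 ± 0.38, SE). With TGFBR3 these were the 4 members with the smallest p, and their groups did not overlap.

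In the TNF receptor superfamily 13 of 21 members had a fitted fold change above 0 and 8 below, while 0 had libraries above control without overlap and 7 below (16.6% and 17.9% of all genes tested). Its median fold change was 0.14, but against the control mean the median was -0.11 in replicate 1 and -0.26 in replicate 2, so the sign differs between the summaries, and without replicate 1 at 7 days the median fold change was -0.35. TNFRSF11B, the decoy receptor osteoprotegerin, stood at 1.77 and 3.52 CPM at 7 days, against 6.68 and 8.80 CPM in control (log2 fold change -1.54 ± 0.40, SE), and TNFRSF11A, the receptor RANK, at 13.8 and 14.9 CPM at 7 days, against 22.4 and 24.3 CPM in control (log2 fold change -0.70 ± 0.22, SE). Integrin subunits had 7 of 16 above 0 and a median of -0.088; ITGA1 and ITGB8 were its members with the smallest p.

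Toll-like receptor, NOD and inflammasome genes had 10 of 35 above 0 and 25 below, 12 of these without overlap (17.9% of all genes tested), and a median of -0.26, with -0.50 in replicate 1 and -0.015 in replicate 2. Replicate 2 lay within the range of the control libraries, whose list medians were -0.14 and 0.14. NLRP2 stood at 48.2 and 54.0 CPM at 7 days, against 88.3 and 72.4 CPM in control (log2 fold change -0.65 ± 0.22, SE). NLRC5, a transactivator of HLA class I genes, stood at 66.7 and 121 CPM at 7 days, against 142 and 188 CPM in control (log2 fold change -0.81 ± 0.34, SE), and TLR2 at 1.44 and 2.31 CPM at 7 days, against 4.04 and 4.71 CPM in control (log2 fold change -1.21 ± 0.48, SE). RNA helicases of the DEAD and DEAH families had a median of 0.06, with the virus sensor DDX58 (RIG-I) at 28.4 and 52.7 CPM at 7 days, against 75.5 and 127 CPM in control (log2 fold change -1.32 ± 0.44, SE). USP18, a deubiquitinase-family regulator of interferon signalling, stood at 96.4 and 106 CPM at 7 days, against 158 and 152 CPM in control (log2 fold change -0.62 ± 0.20, SE), in a family of 43 with a median of 0.014.

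Host genes described as responsive to the viral EBNA2 protein had 3 of 20 members above 0 and 17 below, 6 of these without overlap (17.9% of all genes tested), and a median of -0.29 (-0.21 and -0.43). Against the control mean, the control libraries had list medians of -0.11 and 0.11 and the 24 h libraries 0.17 and -0.20. Replicate 2 at 24 h thus lay near replicate 1 at 7 days. CR2, the complement receptor CD21 through which the virus enters B cells, stood at 98.8 and 159.6 CPM at 7 days, against 286 and 226 CPM in control (log2 fold change -0.99 ± 0.32, SE). CCL3, a chemokine, stood at 234 and 235 CPM at 7 days, against 317 and 347 CPM in control (log2 fold change -0.50 ± 0.19, SE), and EBI3, a cytokine subunit induced by the virus, at 38.2 and 30.3 CPM at 7 days, against 52.8 and 64.6 CPM in control (log2 fold change -0.78 ± 0.30, SE). Both 7 day libraries of each lay below both control libraries. MIR155HG, the host transcript of miR-155, stood at 61.3 and 142 CPM at 7 days, against 212 and 353 CPM in control (log2 fold change -1.47 ± 0.60, SE), and MIR146A, whose reads may belong to its host gene, at 7.51 and 11.7 CPM at 7 days, against 17.8 and 52.8 CPM in control (log2 fold change -1.88 ± 0.67, SE); these were picked after their values were known.

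B cell markers had a median of -0.27, made up of -0.54 in replicate 1 and -0.0089 in replicate 2, and germinal centre genes one of 0.021 (-0.11 and 0.13). In that list LMO2 stood at 9.61 and 10.6 CPM at 7 days, against 17.5 and 27.5 CPM in control (log2 fold change -1.16 ± 0.33, SE) and STMN1, a microtubule destabiliser of dividing cells, at 1128 and 778 CPM at 7 days, against 593 and 604 CPM in control (log2 fold change 0.67 ± 0.27, SE). Plasma cell genes had a median of -0.19, with -0.63 in replicate 1 and 0.21 in replicate 2, and the median fold change was 0.20 without replicate 1 at 7 days. SDC1, the plasma cell surface proteoglycan CD138, stood at 24.96 and 10.7 CPM at 7 days, against 6.76 and 5.53 CPM in control (log2 fold change 1.53 ± 0.51, SE). It was higher in both replicates, and more so in replicate 1.

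Channel genes were lower mainly in replicate 1. Potassium channel genes had 18 of 24 below 0 and a median of -0.50, with -1.06 in replicate 1 and -0.10 in replicate 2, and calcium channel and pump genes had 23 of 35 below 0 and a median of -0.20 (-0.43 and 0.032), which was 0.02 without replicate 1 at 7 days. Within these, the endolysosomal channels MCOLN3 and MCOLN2 were lower in both replicates, MCOLN3 at 6.63 and 7.14 CPM at 7 days, against 14.1 and 26.5 CPM in control (log2 fold change -1.56 ± 0.43, SE) and MCOLN2 at 179 and 352 CPM at 7 days, against 425 and 659 CPM in control (log2 fold change -1.03 ± 0.43, SE). Regulators of G protein signalling had a median of -0.26 (-0.44 and -0.084), homeobox genes -0.16 (-0.39 and 0.051), myosins -0.16 (-0.33 and -0.0073) and plasma membrane solute carriers -0.11 (-0.27 and -0.021). PRRX1, a homeobox gene near the detection limit, stood at 0.552 and 0.905 CPM at 7 days, against 2.28 and 4.61 CPM in control (log2 fold change -2.21 ± 0.54, SE). MAP kinase feedback genes, which include dual-specificity phosphatases and SPRY, SPRED, RASA and IER genes, had 17 of 22 below 0 and a median of -0.23 (-0.17 and -0.16). Among them DUSP2 stood at 38.7 and 49.3 CPM at 7 days, against 63.8 and 96.1 CPM in control (log2 fold change -0.86 ± 0.39, SE).

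The remaining lists lay within 0.22 of 0. Medians were 0.22 for tubulins and actins, 0.17 for circadian clock genes, 0.032 for 434 C2H2 zinc finger genes, 0.022 for Fc receptors, -0.002 for sphingolipid enzymes, -0.013 for phosphodiesterases and adenylate cyclases, -0.014 for glycosyltransferases, -0.027 for TRIM genes, -0.043 for Notch and -0.046 for Wnt pathway genes, and -0.077 for nuclear receptors. Without replicate 1 at 7 days the medians of tubulins and actins and of clock genes were -0.03 each. Single members could still stand apart: TCF7, a Wnt effector of lymphocytes, stood at 3.203 and 2.91 CPM at 7 days, against 8.08 and 12.2 CPM in control (log2 fold change -1.72 ± 0.46, SE), the Notch coactivator MAML2 at 6.18 and 15.6 CPM at 7 days, against 19.5 and 31.3 CPM in control (log2 fold change -1.22 ± 0.50, SE), and the tubulin TUBA8 at 1.99 and 1.51 CPM at 7 days, against 5.89 and 4.71 CPM in control (log2 fold change -1.60 ± 0.38, SE). Among the few members of the other-cell marker lists that were tested, medians were 0.54 over 3 T and NK genes (1.09 in replicate 1 and -0.19 in replicate 2), -0.38 over 4 myeloid genes (-0.17 and -0.61) and -0.60 over 5 stromal and epithelial genes (-1.45 and -0.17). The last include COL1A1 at 0.442 and 0.905 CPM at 7 days, against 4.74 and 2.66 CPM in control. The proteoglycan VCAN, from the myeloid list, stood at 30.3 and 10.1 CPM at 7 days, against 54.4 and 43.2 CPM in control (log2 fold change -1.28 ± 0.52, SE).

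Grouping genes by the letters of their symbols gave 83 families of at least 15 tested members, described here without a test. A family holds every symbol with the same letters before its first digit. It can therefore include kinases or pseudogenes beside the genes it is named for. Symbols with RPL, the letters of large-subunit ribosomal proteins, had the highest median, 0.88 over 54 genes. Against the control mean the median was 1.36 in replicate 1 and 0.25 in replicate 2. Symbols with RPS, the letters of small-subunit ribosomal proteins, had 0.79 over 45 genes (1.20 and 0.16). Mitochondrial ribosomal proteins (MRPL) had 0.31 (0.56 and 0.082), translation initiation factors (EIF) 0.31 (0.46 and 0.069) and cytochrome c oxidase genes (COX) 0.28 (0.53 and 0.018). In these families replicate 1 carried most of the difference. Ribosomal protein genes have many processed pseudogenes, so their counts depend on how reads with several matches were treated, which the sources used here do not say. The 5 lowest medians were those of cytochrome P450 genes (CYP) at -0.45 (-0.64 and -0.14), genes with FLJ clone symbols at -0.37 (-0.59 and -0.14), interleukin and interleukin receptor symbols (IL) at -0.34, myosins (MYO) at -0.29 (-0.50 and -0.0063) and G protein-coupled receptors (GPR) at -0.27 (-0.30 and -0.22). Of the 39 IL genes 31 had a fold change below 0, and their median was -0.66 in replicate 1 and -0.33 in replicate 2.

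Transcript length moved with replicate 1 at 7 days and not with replicate 2. Genes were split into 5 equal classes by their longest GENCODE 29 transcript, which 11284 of the 12536 genes had (90.0%). From the shortest to the longest class, the median log2 difference from the control mean was 0.26, 0.11, 0.044, -0.087 and -0.27 in replicate 1, and it stayed between -0.013 and 0.014 in replicate 2. In the control libraries it stayed between -0.044 and 0.044. The trend was not particular to 7 days: from the shortest to the longest class, 3 day replicate 1 went from 0.33 to -0.30. In 3 day replicate 2 the shortest and longest classes had 0.0044 and -0.012. At 24 h replicate 1 went the other way, from -0.075 to 0.085. The 15 higher genes named first had a median longest transcript of 2158 bases and 14 of the 15 lower genes one of 5197 bases, against 3475 bases for the middle class. The part of transcript length in the gene results was not tested.

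**Figure D4:**
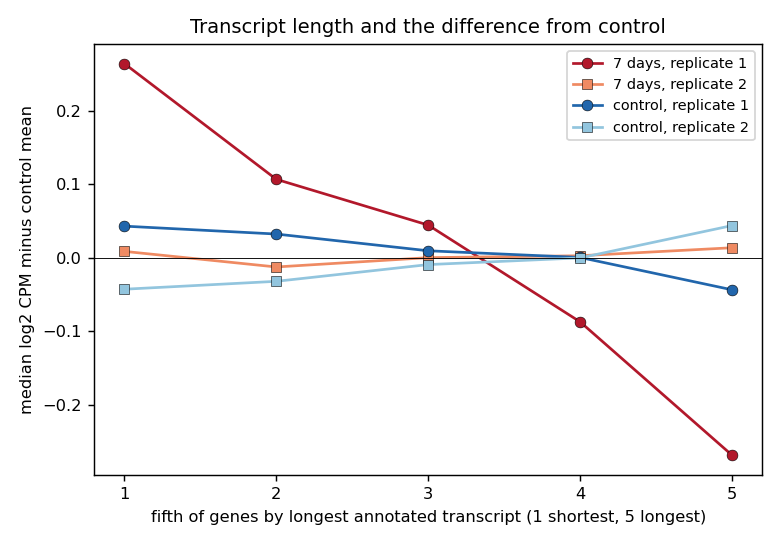
Median log2 difference from the control mean by class of transcript length, from 1 (shortest) to 5 (longest), with 1 line per 7 day and control library. The line of 7 day replicate 1 goes from 0.26 down to -0.27, and the lines of 7 day replicate 2 and of the control libraries stay near 0.

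Genes that most separated the 7 day replicates are described without a test. Higher in replicate 1 than in replicate 2 were PLK2, a stress-induced kinase, at 36.9 and 1.01 CPM at 7 days, against 5.62 and 2.76 CPM in control, GDF15, a stress-induced cytokine, at 24.96 and 1.31 CPM at 7 days, against 1.93 and 2.87 CPM in control, and GADD45A, which is induced by DNA damage, at 269 and 39.8 CPM at 7 days, against 68.2 and 65.3 CPM in control. TNFRSF10A, a death receptor for TRAIL, stood at 25.3 and 3.72 CPM at 7 days, against 4.48 and 5.02 CPM in control, GLS2, a liver-type glutaminase, at 22.5 and 3.32 CPM at 7 days, against 5.27 and 3.99 CPM in control, and PODXL, podocalyxin, at 59.9 and 2.21 CPM at 7 days, against 3.78 and 2.66 CPM in control. As background, PLK2, GDF15, GADD45A, TNFRSF10A and GLS2 are known as genes that p53 can induce. ZNF385A stood at 109 and 11.6 CPM at 7 days, against 21.4 and 17.7 CPM in control, and VWCE at 22.3 and 3.42 CPM at 7 days, against 9.84 and 7.47 CPM in control. In all 8 genes replicate 1 lay above both control libraries and replicate 2 below both. The 3 day libraries split alike: PLK2 stood at 37.5 and 3.12 CPM and GADD45A at 231 and 54.5 CPM in 3 day replicates 1 and 2.

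Lower in replicate 1 were EGR1, an immediate early transcription factor, at 2.76 and 24.0 CPM at 7 days, against 16.8 and 28.0 CPM in control, the mechanosensitive channel gene PIEZO2 at 10.5 and 97.0 CPM at 7 days, against 57.8 and 87.1 CPM in control, and the potassium channel gene KCNA3 at 3.09 and 26.6 CPM at 7 days, against 7.03 and 19.3 CPM in control. NCKAP5, NBEA, ATHL1 and the collagen genes COL5A1 and COL24A1 split in the same direction, with replicate 1 between 1.66 CPM for NCKAP5 and 7.29 CPM for COL24A1, against 29.4 and 55.6 CPM in replicate 2. In all 8 of these genes replicate 1 lay below both control libraries. With 2 replicates that disagree, the fitted fold changes of the 16 genes, such as 2.16 ± 1.46 for PLK2 and -0.74 ± 1.01 for EGR1 (SE), are means over unlike values.

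**Figure D5:**
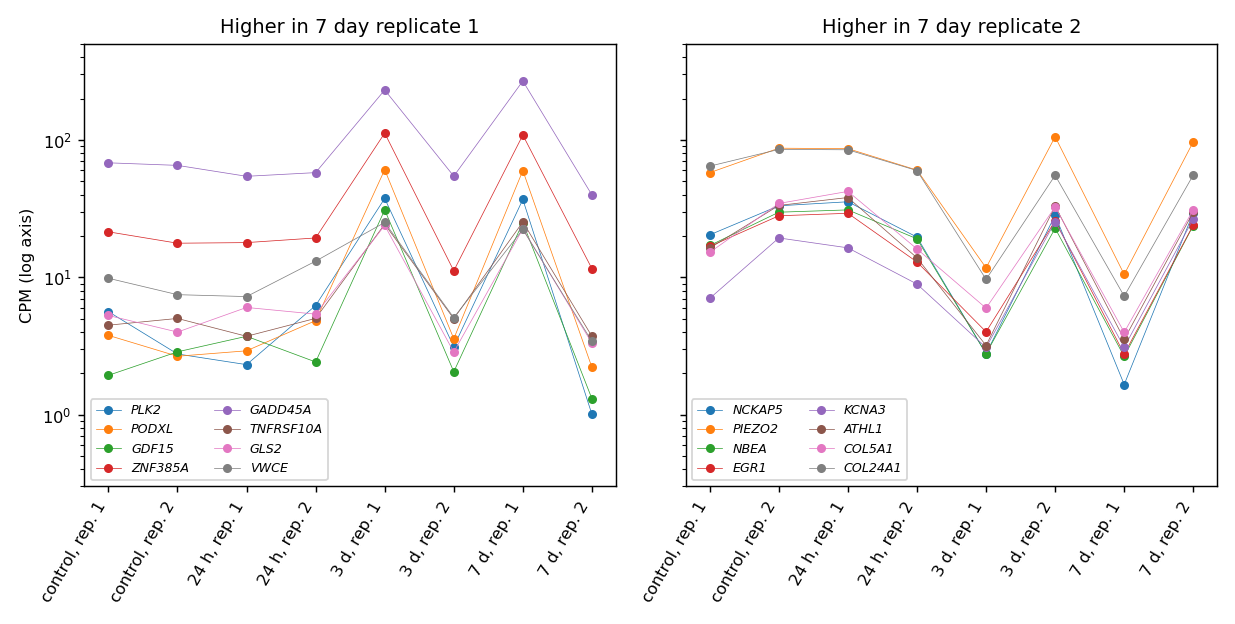
CPM on a log axis of the 16 genes most apart between the 7 day replicates in all 8 libraries, from control to 7 days, with lines that only join points of 1 gene. Replicate 1 of PLK2 lies at 36.9 CPM and replicate 2 at 1.01 CPM at 7 days, and the 3 day replicates lie close to the 7 day replicates of the same number.

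Against the 24 h libraries the 7 day libraries had 0 genes called by edgeR in either direction (0%) and 747 with an unadjusted p under 0.05 (5.96%). Against the 3 day libraries they had 0 called (0%) and 31 with an unadjusted p under 0.05 (0.247%). These comparisons share the 7 day libraries with the one against control, so the values are set side by side only. ITGA1 stood at 83.9 and 71.5 CPM at 24 h, 22.6 and 20.7 CPM at 3 days and 23.3 and 22.2 CPM at 7 days, against 70.4 and 77.3 CPM in control. CCL22 stood at 552 and 617 CPM at 24 h, 254 and 195 CPM at 3 days and 257 and 203 CPM at 7 days, against 725 and 534 CPM in control. NFIL3 stood at 8.14 and 7.16 CPM at 24 h, 14.1 and 17.8 CPM at 3 days and 19.8 and 18.5 CPM at 7 days, against 8.17 and 8.70 CPM in control. In these 3 genes the 24 h level lay near control and the 3 day level near or just short of the 7 day level. PIGR stood at 6.03 and 7.72 CPM at 24 h and 20.4 and 14.5 CPM at 3 days, and CREB3L1 at 3.22 and 2.98 CPM and 0.411 and 0.178 CPM. ADM stood at 0.905 and 0.372 CPM at 24 h, below its control level, and at 3.29 and 8.66 CPM at 3 days. SNORD100 stood at 6.89 and 5.09 CPM at 3 days, above its 7 day level of 2.65 and 2.71 CPM.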

How the data were processed

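Poly(A)-selected RNA from 1 lymphoblastoid cell line was sequenced in 8 libraries, 2 per group. The deposited files hold raw gene counts per library. The submitters' processing notes list Trim Galore, Bowtie2, SAMtools, DESeq2 1.8.1, R 3.2.3 and the build hg19 (GRCh37), with no roles given. The counting tool, strand setting and treatment of reads with several matches were not stated in the labels or files. Values were read as counts because they are whole numbers with HTSeq-like summary entries; those 5 entries, 42.6% to 57.5% of the reads, stayed out of library sizes and tests.

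Genes passing edgeR's filter of 10 counts in enough libraries and 15 in all (12536 of 23710) were fitted over all 4 groups in edgeR 4.0.16 (R 4.3.3), with trimmed mean of M values scaling and the quasi-likelihood test (common biological coefficient of variation 0.276; 4 residual degrees of freedom). P-values were adjusted by Benjamini-Hochberg over all genes tested. No replicate block was used in this fit, because the labels do not say that numbers pair libraries. With 2 libraries against 2, an exact permutation test cannot go below p = 0.333. Alternatives were DESeq2 1.42.0, limma 3.58.1 (voom), other scalings and filters, and each library left out. The edgeR test was checked on simulated counts of 12536 genes, with 50 genes changed at each size. It recovered 6% of 2-fold changes, 86% of 4-fold changes and 92% of 8-fold changes, with 5 false calls. A difference of 2-fold would therefore mostly go uncalled by this test.

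Genes named first are the 15 with the smallest p in each direction among those that reach 2 CPM in the group where they are higher and whose libraries do not overlap. Clone identifiers, Y-linked genes, XIST and TSIX were left out of these. Then came up to 4 members of each list by p, the 8 largest gains and losses in CPM, and the 8 widest gaps in each direction at 5 CPM or more. The 8 most apart between 7 day replicates in each direction at 10 CPM or more and genes near absent in 1 group followed. Other names are said to be so where they appear. The 38 lists and the members were chosen with earlier results of these data known. Promoters came from RefSeq on GRCh38.p14, matched by symbol, and no coordinate was taken from the deposited files. Some genes and lists that these rules select are not reported here.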

Additional observations from a re-analysis of the deposited data

How the results depend on the processing

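The fold changes of 127 genes were followed across the alternatives, and none changed direction. The 16 genes most apart between the 7 day replicates were not among the 127. PODXL, 1 of those 16, was called higher by edgeR with the replicate block over 4 libraries (adjusted p = 0.0197). Its 7 day replicate 2 lay below both control libraries. Some list medians changed sign, among them those of plasma cell genes, the TNF receptor superfamily and calcium channel genes without 7 day replicate 1. Genes with an adjusted p under 0.05 numbered 0 higher and 0 lower by edgeR, 0 and 15 by DESeq2, 0 and 18 by DESeq2 on the genes edgeR tested, and 1 and 15 with no filter on counts, where 507 higher and 568 lower genes had an unadjusted p under 0.05. Leaving out 1 library at a time, by edgeR or DESeq2, gave 0 to 2 higher and 0 to 13 lower calls, and 43 to 829 higher and 91 to 1042 lower genes at an unadjusted p under 0.05. Where an arm was left with 1 library, that library is assumed to vary like the other groups. Without replicate 1 at 7 days edgeR gave 84 higher and 217 lower genes at an unadjusted p under 0.05, and without replicate 2 it gave 829 and 948. Without control replicate 1 it gave 109 and 283, and without control replicate 2 it gave 43 and 155. Without replicate 1 of both the 3 day and 7 day groups, an alternative added after seeing the data like the left-out libraries of DESeq2 and its run on the edgeR genes, it gave 278 and 408. DESeq2 gave 0 and 6 calls (56 and 186 unadjusted) without 7 day replicate 1, 2 and 13 (809 and 1042) without 7 day replicate 2, 1 and 3 (157 and 204) without control replicate 1, and 0 and 0 (54 and 91) without control replicate 2. The replicate block over the 4 libraries gave 13 higher and 68 lower calls (540 and 897 at an unadjusted p under 0.05), and over 8 libraries 0 and 0 (265 and 467); with this block over 4 libraries FOS (adjusted p = 0.00165) and PIGR (0.0297) were among the higher calls. The labels give only the numbers, and replicate differences across genes correlated 0.32 between the 7 day and control pairs, 0.81 between 7 and 3 days, -0.31 between 7 days and 24 h, and -0.60 between control and 24 h. Upper-quartile scaling shifted the median of all genes to -0.053, with 157 higher and 464 lower genes at an unadjusted p under 0.05. The cause of these differences was not tested. Genes of a few counts, such as CREB3L1, TENM2 and BTBD8, carry wide counting intervals.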
